A study of Mus musculus with 105 samples.

Results

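Healthy mouse lung was set against 11 other healthy tissues in bulk poly(A) RNA. The lung group held the 4 libraries whose source label is Lung, of 48 healthy tissue libraries and 105 libraries in the series. The other tissues were thymus, stomach, spleen, skin, ovary, lymph node (LN), liver, kidney, heart, colon and brain, with 4 libraries each, 44 in all. All 48 libraries came from wild-type (WT) female C57BL/6 mice, with no transgene or treatment in the labels. Each tissue was kept in RNAlater and cut up before RNA extraction with DNase treatment, and the libraries were stranded mRNA libraries. The sources used here do not state the age or number of the mice, the lobes taken or whether blood was flushed out. The other 57 libraries of the series are cultured cells and enter no comparison. The labels do not tie libraries to animals, so p-values measure the spread between these libraries, which may be technical.

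The lung exchanges gas across a thin wall of flat alveolar type 1 cells laid against a dense capillary bed. Alveolar type 2 cells secrete surfactant, a film of lipid and protein that lowers surface tension and keeps alveoli open. The airways are lined by club cells, which secrete uteroglobin and break down foreign compounds, and by ciliated cells, which move mucus. Resident macrophages clear surfactant and particles, and elastic fibres give the tissue its recoil.

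Lung libraries held 82250280 to 130622388 gene counts and the other libraries 53591239 to 254103370. Values after ± are SDs over the 4 libraries of a tissue. Mitochondrial genes took 1.80% to 1.99% of counts in lung and 1.24% to 27.5% elsewhere. Lung replicates 1 to 3 carry the run code D812 and replicate 4 carries D804. Levels are given as CPM (counts per 1000000 gene counts of a library), while log2 differences come from the edgeR fit, which rescales libraries by TMM factors. These factors were 1.13 to 1.20 in lung, 0.458 to 0.498 in liver and 0.557 to 0.763 in heart, so a gene can be higher in lung by CPM without being called against liver or heart in the fit. Sftpc, which encodes surfactant protein C and marks lung, stood at 11400, 7693, 11290 and 11380 CPM in lung replicates 1 to 4. In the 44 other libraries its lowest, median and highest levels were 0, 0.0118 and 3.57 CPM. Every lung library was above every other library.

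**Figure D1:**
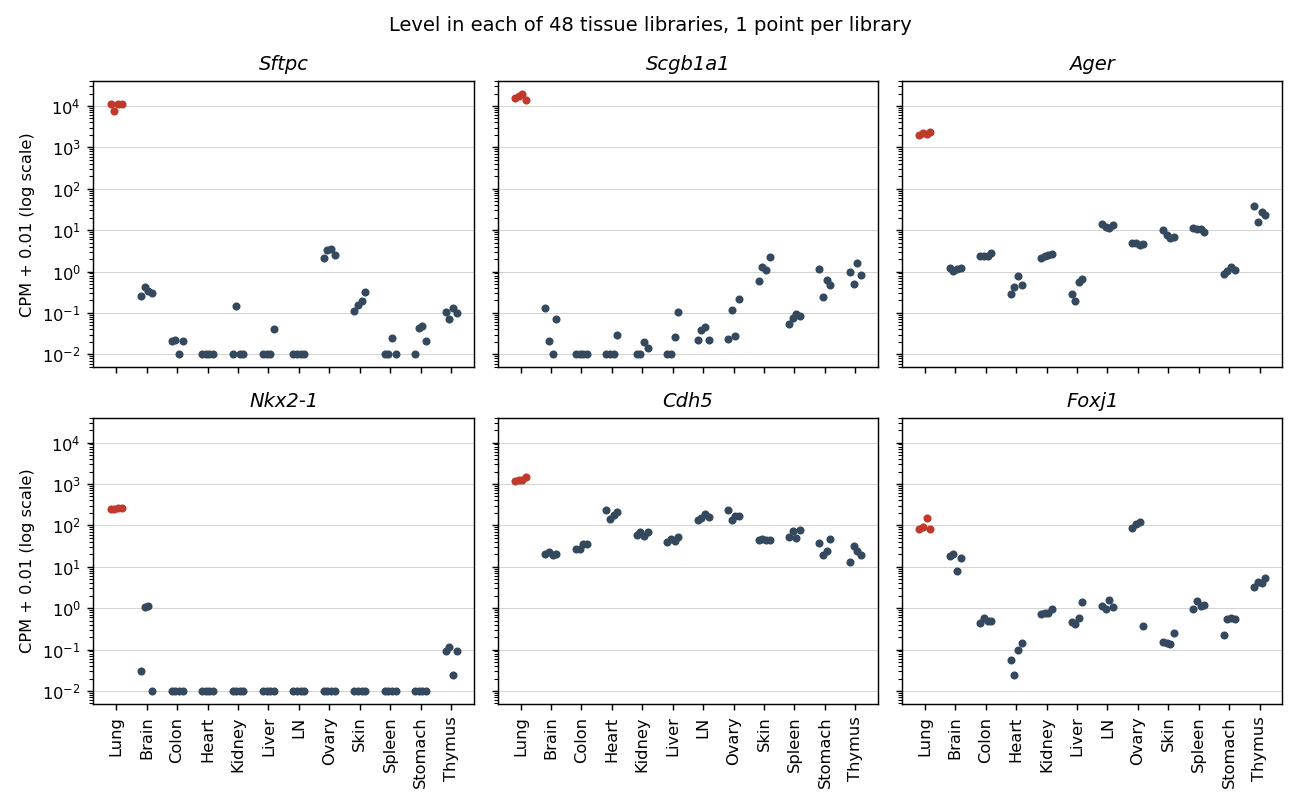
Level of 6 genes in each of the 48 libraries, as CPM + 0.01 on a log axis, 1 point per library. The lung libraries lie above every other library for Sftpc, Scgb1a1, Ager, Nkx2-1 and Cdh5, while 3 of the 4 ovary libraries reach lung levels of Foxj1.

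Each gene was tested with edgeR for lung minus the mean of the 11 tissue terms and for lung minus each tissue, and called at a Benjamini-Hochberg adjusted p under 0.05. Of 26242 genes tested, 8315 were higher in lung than that mean (31.7%) and 6552 were lower (25.0%). A gene is called lung-highest here if it was at least 2 log2 units above the mean and also higher than each of the 11 tissues in its own test. There were 562 lung-highest genes (2.14%), of which 423 were protein-coding, 62 were lincRNA genes and 35 were antisense genes. Whether reads were counted by strand is not given, so an antisense gene cannot be told apart from its partner. With the size rule alone, 2858 genes were at least 2 log2 units higher (10.9%) and 930 at least 2 lower (3.54%). The mirror rule gave 42 lung-lowest genes (0.16%). The D812 libraries alone gave 477 lung-highest and 35 lung-lowest genes, while D804 holds 1 library of each of 8 tissues and gives no test.

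The lung-highest genes took 14.95% to 15.66% of all counts in the lung libraries, against 0.397% in a liver library to 2.19% in an ovary library elsewhere. By CPM, 449 of the 562 had a lung mean at least 2 times that of every other tissue, 76 at least 10 times and 19 at least 100 times. The rule chose these genes from the same counts as higher in lung. The direction of these shares and folds follows from it, and only their size is described. Against single tissues, ovary gave the fewest calls, with 6481 genes higher in lung (24.7%) and 7163 lower (27.3%). Thymus (18205 calls) and brain (18129) gave the most, and their order changed over the alternatives. Brain was ahead with DESeq2 (18516 against 18508 for thymus), with the stricter filter (15322 against 15320) and in each fit without a lung replicate. It was also ahead without replicate 1 (17681 against 17476) or replicate 4 (17723 against 17618) of the other tissues. Thymus was ahead in the other alternatives that tested both tissues. Against thymus 8060 genes were higher in lung (30.7%) and 10145 lower (38.7%). The shares called higher in lung were 38.5% against liver, 35.3% against heart, 35.2% against brain, 31.7% against kidney and stomach, 31.4% against spleen, 29.9% against skin, 29.5% against LN and 28.8% against colon. The shares called lower in lung were 33.8% against brain, 33.5% against spleen, 32.4% against LN, 31.9% against stomach, 30.8% against colon, 29.5% against kidney, 28.4% against skin, 27.7% against liver and 25.2% against heart. The correlation of mean log profiles with lung ran from 0.913 for ovary, 0.890 for LN and 0.886 for heart down to 0.786 for brain. These are descriptions over 26242 genes, which are not independent.

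**Figure D2:**
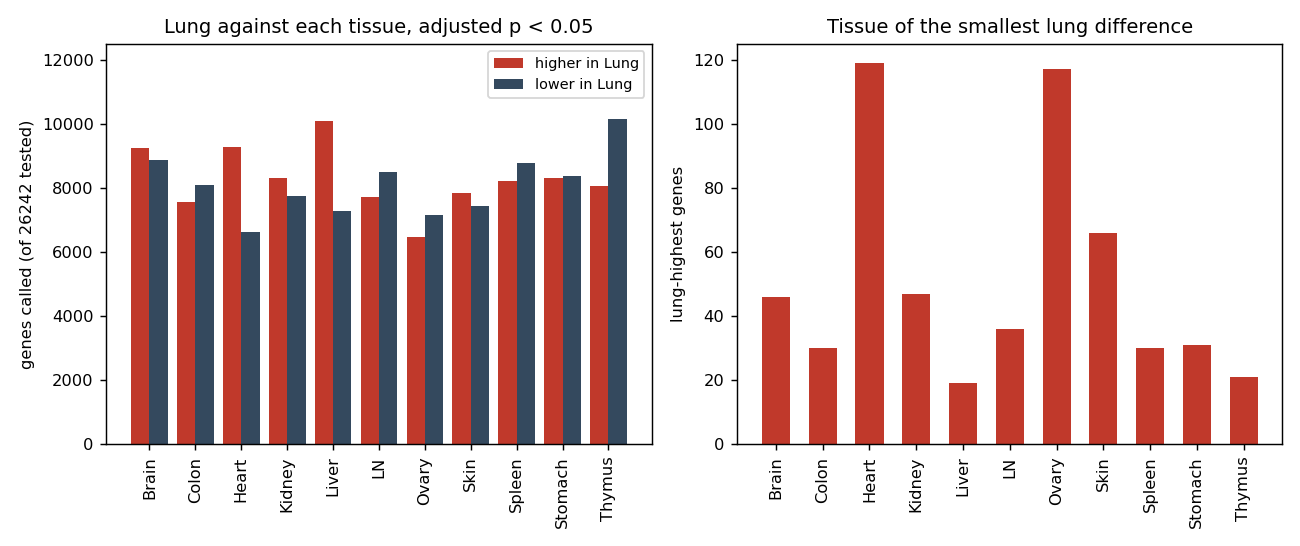
Left, genes called higher and lower in lung against each tissue, of 26242 tested, with 13644 calls in all for ovary and 18205 for thymus. Right, the 562 lung-highest genes by the tissue with the smallest lung difference, which was heart for 119 and ovary for 117.

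Surfactant and alveolar type 2 genes were higher in lung, and for several of them the other tissues were near 0. There the size of a log2 difference depends on the prior count of the fit, so CPM and the distance to the nearest tissue are given. Of 15 listed genes 13 were higher in lung than the mean, 0 were lower and 9 were lung-highest, against 31.7%, 25.0% and 2.14% of all genes. Their median log2 difference was 5.51, against -0.06 over all genes. Promoters of 3 of these genes, and of Ager of type 1 cells, are shown as examples from the 15 lung-highest genes that lay farthest from their nearest tissue, of which 10 had a promoter in the table. They are from RefSeq (GRCm38.p6), 250 bases before to 50 after each start. Their positions are chr6:72304360-72304659 (plus strand) for Sftpb, chr14:41131538-41131837 (plus) for Sftpa1, chr16:19706316-19706615 (minus) for Lamp3 and chr17:34597600-34597899 (plus) for Ager. Capitals mark matches on either strand to CTCAAG, a core bound by the lung factor NKX2-1, or to TGTTTNC, a core of forkhead (FOX) factors, where N is any base.
Sftpb: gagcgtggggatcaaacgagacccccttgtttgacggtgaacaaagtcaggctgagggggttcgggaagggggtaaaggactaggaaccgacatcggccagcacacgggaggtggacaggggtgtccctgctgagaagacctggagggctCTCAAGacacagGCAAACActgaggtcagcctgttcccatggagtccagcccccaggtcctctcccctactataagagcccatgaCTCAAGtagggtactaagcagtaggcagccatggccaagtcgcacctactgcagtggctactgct
Sftpa1: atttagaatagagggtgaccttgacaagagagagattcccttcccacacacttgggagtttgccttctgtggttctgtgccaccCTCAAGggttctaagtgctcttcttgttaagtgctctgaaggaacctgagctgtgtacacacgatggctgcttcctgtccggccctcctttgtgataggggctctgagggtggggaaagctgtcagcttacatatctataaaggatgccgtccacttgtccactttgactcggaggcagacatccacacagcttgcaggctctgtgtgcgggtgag
Lamp3: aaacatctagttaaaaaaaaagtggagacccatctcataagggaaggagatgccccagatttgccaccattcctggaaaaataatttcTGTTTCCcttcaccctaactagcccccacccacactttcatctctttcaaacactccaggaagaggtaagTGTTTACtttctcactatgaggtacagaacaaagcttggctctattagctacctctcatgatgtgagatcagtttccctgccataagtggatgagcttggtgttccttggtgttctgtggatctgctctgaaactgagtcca
Ager: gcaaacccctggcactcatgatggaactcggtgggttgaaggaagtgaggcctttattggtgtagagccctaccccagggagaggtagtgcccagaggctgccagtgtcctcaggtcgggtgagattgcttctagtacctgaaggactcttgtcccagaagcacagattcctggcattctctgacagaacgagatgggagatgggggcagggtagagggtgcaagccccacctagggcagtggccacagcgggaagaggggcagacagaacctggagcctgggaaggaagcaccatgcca

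Sftpb held 2 matches to CTCAAG, whose first bases lie 100 and 15 bases before the start, and 1 to the FOX core on the minus strand. Sftpa1 held 1 match to CTCAAG, 166 bases before its start, Lamp3 held 2 to the FOX core and Ager held 0. No motifs overlap in these 4 windows. Of all 10 promoters, 4 held CTCAAG, 4 held the FOX core and 4 held neither, among them that of Nkx2-1 itself. Of the 562 lung-highest genes 371 had a promoter in the table. CTCAAG was in 56 of them (15.1%), against 4365 of all 27025 promoters (16.2%), and TGTTTNC was in 93 (25.1%), against 5548 (20.5%). A match is a run of letters in this window and says nothing about binding.

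Sftpb encodes the protein that spreads surfactant lipid into a film. It stood at 4302, 4675, 5253 and 4451 CPM in lung, and its lowest, median and highest levels elsewhere were 0, 0.0124 and 0.632 CPM. Ovary came nearest (log2 13.98, SE 0.53; edgeR, adjusted p = 6.04e-22). Sftpa1 and Sftpd encode collectins, which bind microbes and surfactant. Sftpa1 was at 3856, 4072, 4227 and 3487 CPM in lung and at 0, 0.00652 and 1.95 CPM (lowest, median, highest) elsewhere, with liver nearest (log2 10.61, SE 0.49; edgeR, adjusted p = 1.88e-20). Sftpd was at 926, 874, 924 and 853 CPM in lung, against 7.46, 6.61, 6.63 and 0 CPM in the 4 ovary libraries, the nearest tissue. No other library reached the lowest lung library for any of these 3 genes.

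Lamp3, a protein of the lamellar bodies that store surfactant, was at 570.1, 629, 625 and 595 CPM in lung, against 2.48 ± 0.604 CPM in LN (SD, n = 4), the highest other mean (log2 8.07, SE 0.34; edgeR, adjusted p = 8.43e-19). Slc34a2, the phosphate carrier of type 2 cells, was at 2643, 3170, 2999 and 2567 CPM in lung, against 40.0 ± 15.9 CPM in colon (log2 5.99, SE 0.74; edgeR, adjusted p = 4.63e-09). Lpcat1, which makes surfactant lecithin, was at 514, 544, 530.2 and 519 CPM in lung, against 134 ± 23.7 CPM in spleen. Cxcl15, a lung chemokine gene of mice, was at 1787, 1599, 1454 and 1461 CPM in lung, and its highest level elsewhere was 4.95 CPM in an LN library. Etv5 was also lung-highest, at 182 ± 15.05 CPM in lung and 74.45 ± 24.6 CPM in colon. Some other members were not called against another tissue or were lower than in it. Abca3, the lipid pump of lamellar bodies, was higher than 10 tissues but averaged 711 ± 62.98 CPM in lung and 585 ± 18.5 CPM in kidney (log2 -0.12, SE 0.15; edgeR, adjusted p = 0.495). Napsa, a protease that matures surfactant proteins, was lower in lung than in kidney, at 354 ± 13.3 CPM in lung and 2815 ± 708 CPM in kidney (log2 -3.41). Muc1, a membrane mucin, was not called against stomach, at 291 ± 35.0 CPM in lung and 433 ± 42.1 CPM in stomach. Pgc and Scd1 were the 2 members not called against the mean.

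Alveolar type 1 genes were higher in lung than the mean for all 15 listed, and 10 were lung-highest (median log2 5.39). Ager, the receptor for advanced glycation end products that covers type 1 cells, was at 1942, 2185, 2115 and 2375 CPM in lung. Its highest level elsewhere was 38.2 CPM in a thymus library, the nearest tissue (log2 6.56, SE 0.27; edgeR, adjusted p = 1.49e-22). Rtkn2 was at 294, 269.9, 249.9 and 285 CPM in lung, against 16.9 ± 2.43 CPM in thymus. Akap5, a kinase anchor, was at 521, 550.1, 424 and 480.3 CPM in lung, against 30.1 ± 26.7 CPM in brain. All 4 lung libraries lay above every other library for these genes. The step to the nearest tissue was smaller for Emp2, a membrane protein of type 1 cells (1.79 log2 units over skin), Clic5 (1.53 over heart), Hopx (1.01 over heart) and Vegfa, the vascular growth factor (0.78 over heart). Cldn18, a tight junction protein, and Aqp5, a water channel, were each higher than 10 tissues but not called against stomach. Cldn18 averaged 736 ± 63.5 CPM in lung and 992 ± 207 CPM in stomach. The basement membrane collagens Col4a3 and Col4a4 were not called against kidney, at 352 and 269 CPM in lung and 393 ± 66.5 CPM in kidney and 310.8 ± 42.2 CPM in kidney.

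Club cell genes were higher in lung throughout the list. Scgb1a1, which encodes uteroglobin, was at 15570, 16930, 19400 and 14020 CPM in lung, and its lowest, median and highest levels elsewhere were 0, 0.0330 and 2.24 CPM (log2 13.71, SE 0.77; edgeR, adjusted p = 2.38e-17 for skin). Per kilobase of transcript, lung held 34620 CPM of Scgb1a1, 10100 of Sftpc, 3255 of Lyz2, 2373 of Sftpb, 1943 of Cbr2 and 1367 of Sftpa1. Scgb1a1, Sftpc, Sftpb, Sftpa1 and Slc34a2 together took 3.59% to 4.32% of the counts of a lung library. All 14 listed club and secretory genes were higher than the mean and 6 were lung-highest. Their median log2 difference was 8.07, or 7.92 with tissues at 0 set to a floor of 3 counts over the group. Scgb3a2, another secretoglobin, was at 459, 400.3, 797 and 362 CPM in lung, and its highest level elsewhere was 0.356 CPM in a thymus library. Cbr2, a carbonyl reductase, was at 2509, 2296, 3141 and 2364 CPM in lung, against 184 ± 42.0 CPM in thymus. Cyp2f2, the P450 of club cells, averaged 2535 ± 582 CPM in lung and 1553 ± 189.5 CPM in liver, and was not called against liver (log2 -0.57, SE 0.91; edgeR, adjusted p = 0.608).

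Motile cilia genes were high in lung and in ovary. Of 23 listed, 22 were higher in lung than the mean and 0 were lower (median log2 5.84, or 5.56 with the floor), but 3 were lung-highest. Against ovary alone, 3 were higher in lung and 1 was lower, against 24.7% and 27.3% of all genes. With ovary left out 21 were lung-highest, in a fit with 815 such genes of 25864 tested. Foxj1, the regulator that switches on motile cilia, was at 81.7, 92.5, 148 and 81.1 CPM in lung and at 86.7, 108, 122 and 0.370 CPM in ovary replicates 1 to 4 (log2 0.62, SE 0.56; edgeR, adjusted p = 0.370). Dnah5, an outer dynein arm chain, was at 29.3, 36.9, 55.0 and 24.7 CPM in lung and 39.4, 56.3, 48.1 and 0.260 CPM in ovary. Ovary replicates 1 to 3 overlapped lung for both genes and replicate 4 lay far below. The fat gene Adipoq showed the same split, at 1419, 475, 846 and 0.0685 CPM in ovary, and its part in the cilia values was not tested. With ovary replicate 4 left out, a choice made after seeing the data, 2 cilia genes were lung-highest.

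**Figure D3:**
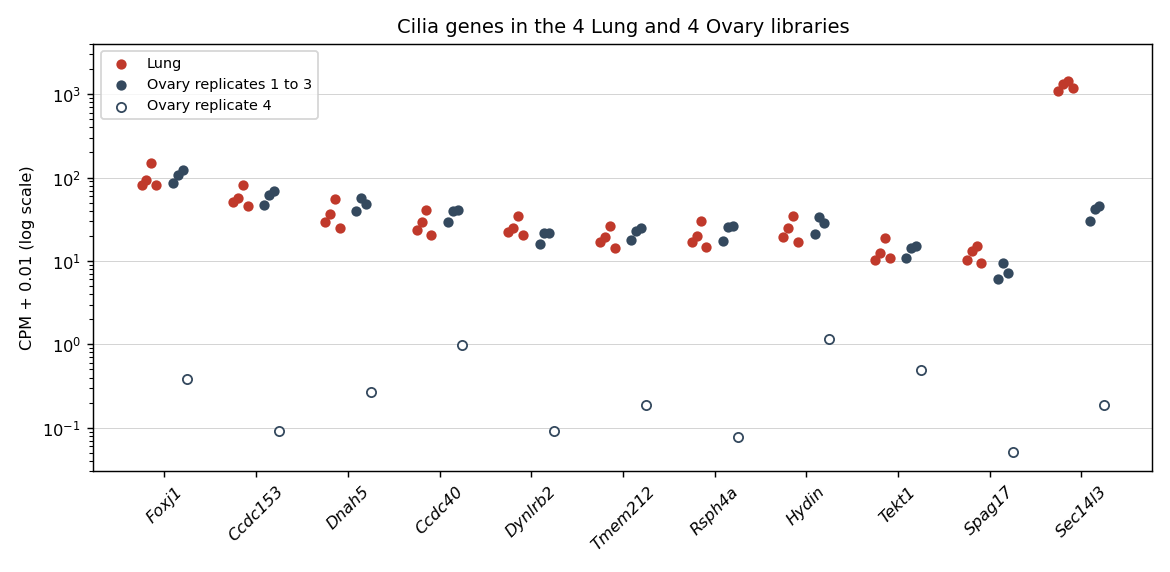
Level of 11 cilia genes in the 4 lung libraries and the 4 ovary libraries, with ovary replicate 4 as open symbols, as CPM + 0.01 on a log axis. Foxj1 spans 81.1 to 147.8 CPM in lung and 86.7 to 122.5 CPM in ovary replicates 1 to 3, while Sec14l3 stays above 1000 CPM in lung alone.

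Sec14l3 stood apart from the other cilia genes. It encodes a lipid transfer protein of ciliated cells and was at 1078, 1333, 1448 and 1198 CPM in lung, against 30.1, 42.3, 46.1 and 0.178 CPM in ovary and 7.63, 22.5, 25.2 and 28.8 CPM in kidney. Every lung library lay above every other library (log2 5.51, SE 0.93; edgeR, adjusted p = 1.33e-05 for kidney). Tppp3, a tubulin-binding protein, and Ccdc39, which sets the repeat of the axoneme, were the other lung-highest members. Tppp3 was at 333.4 ± 40.2 CPM in lung and 98.3 ± 14.9 CPM in skin, and Ccdc39 was 0.79 log2 units above brain. Ccdc39 overlapped ovary, at 25.6, 29.9, 43.9 and 25.0 CPM in lung replicates 1 to 4. An ovary library reached 28.2 CPM, above lung replicates 1 and 4. Ccno, which amplifies centrioles, was the member lower in lung than in ovary, at 3.62 ± 0.685 CPM in lung and 16.8 ± 7.56 CPM in ovary.

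Genes of goblet, basal and neuroendocrine cells were near the background rate, with 5 of 13 higher than the mean, 4 lower and 0 lung-highest. Their median log2 was 0.28, or -0.58 with tissues at 0 set to the floor. Krt5, the keratin of basal cells, was at 0, 1.03, 1.24 and 0.00766 CPM in lung and 5611 ± 229 CPM in skin. Trp63, the regulator of basal cells, was at 0.595, 1.67, 1.13 and 0.735 CPM in lung and was lower than the mean (log2 -1.22, SE 0.37; edgeR, adjusted p = 0.00481), a call lost without skin (edgeR, adjusted p = 0.201) or thymus (edgeR, adjusted p = 0.0553). Ngfr, another basal cell marker, was lung-lowest in the fit, at 1.46, 1.82, 1.51 and 1.40 CPM in lung and 0.601, 6.80 and 65.3 CPM (lowest, median, highest) elsewhere, so its lowest other library lay below lung.

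Endothelial genes were higher in lung as a group. All 14 general markers were higher than the mean, 13 were lung-highest, and their log2 differences ran from 2.23 to 4.33 (median 3.17). Cdh5, the cadherin of endothelial junctions, was at 1179, 1283, 1247 and 1471 CPM in lung and 236, 146, 182 and 208 CPM in heart, the nearest tissue (log2 1.87, SE 0.23; edgeR, adjusted p = 2.41e-09). Pecam1, another junction protein, was at 879.8, 919.6, 899 and 1051 CPM in lung, against 432 ± 34.6 CPM in LN (log2 1.26, SE 0.14; edgeR, adjusted p = 8.34e-10). Vwf, the platelet-binding factor, was at 884, 776, 569.9 and 661 CPM in lung, against 107 ± 69.6 CPM in heart. The lung libraries lay above all 44 others for these 3 genes. Emcn was the exception, at 71.02 ± 8.66 CPM in lung and 88.0 ± 12.1 CPM in kidney, and was lower than in kidney (log2 -0.71, SE 0.16; edgeR, adjusted p = 1.29e-04). In bulk tissue, more cells of a type and more RNA per cell cannot be told apart.

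Genes of the lung capillary bed were higher than the mean for 14 of 14, and 10 were lung-highest (median log2 3.81). Tmem100, a BMP-induced endothelial protein, was at 549, 542, 533 and 624 CPM in lung, against 57.3 ± 14.8 CPM in ovary (log2 3.57, SE 0.29; edgeR, adjusted p = 2.72e-13). Foxf1, a factor of lung capillaries and mesenchyme, was at 330.3, 266, 313.1 and 384 CPM in lung, against 45.4 ± 3.93 CPM in colon (log2 2.67, SE 0.27; edgeR, adjusted p = 3.02e-11). Prx, which encodes periaxin, was at 310.4, 348.1, 376 and 426 CPM in lung, against 81.9 ± 7.41 CPM in skin. Car4, a carbonic anhydrase of the capillary surface, was not called against colon, brain or kidney, at 212 ± 25.7 CPM in lung and 431 ± 199 CPM in colon. Aplnr and Gpihbp1, the apelin receptor and the anchor of lipoprotein lipase, were not called against heart. Among 6 lymphatic genes 4 were higher and 2 lower. Lyve1 was lung-highest, at 397, 324.8, 291 and 258 CPM in lung and 107 ± 13.8 CPM in LN, while Prox1, the lymphatic regulator that hepatocytes share, averaged 3.96 CPM in lung and 97.9 ± 14.2 CPM in liver.

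**Figure D4:**
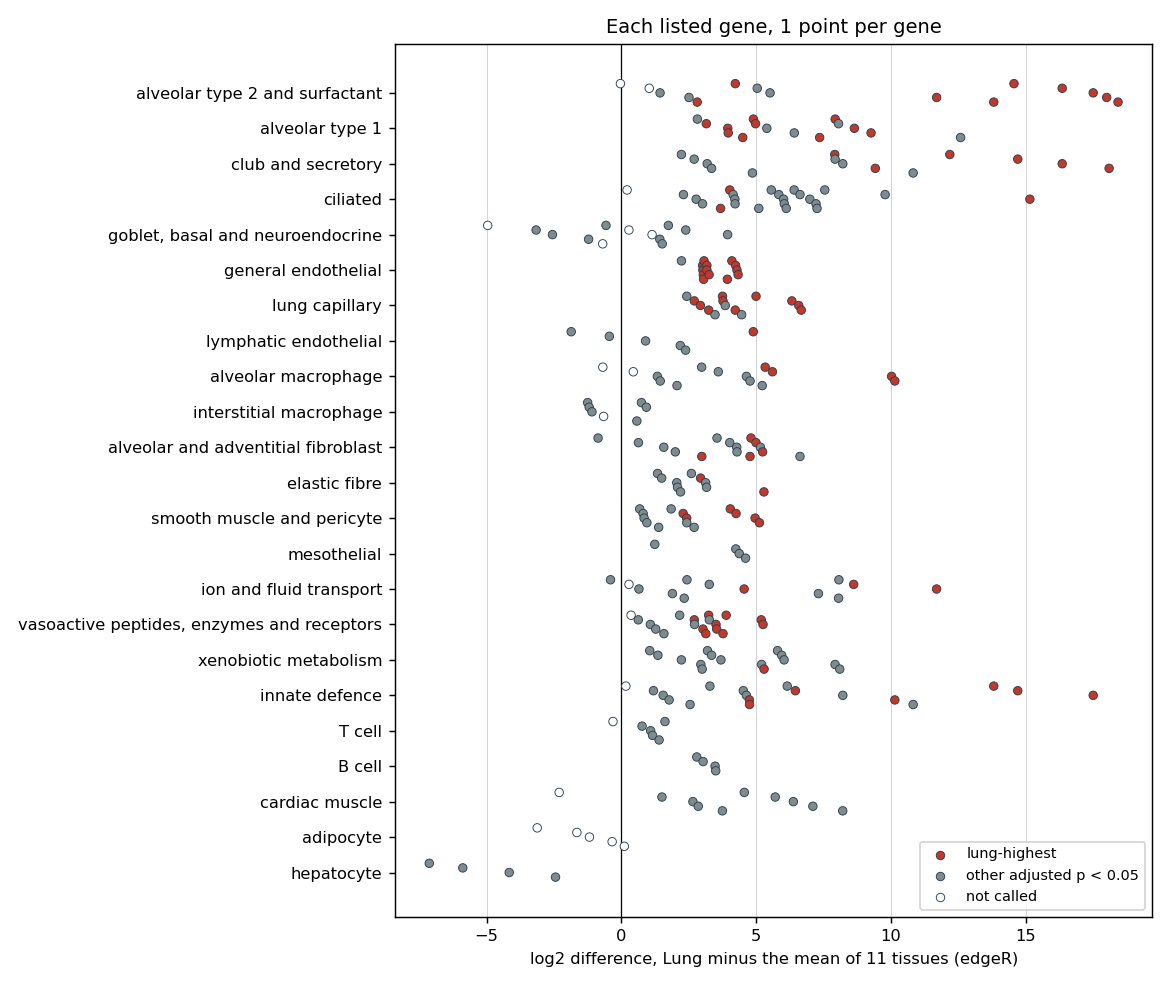
Log2 difference of lung minus the mean of the 11 tissues for each listed gene, 1 point per gene, in 23 lists, with lung-highest genes in red, other called genes in grey and genes not called in white. Of the 14 general endothelial genes 13 are red, of the 23 cilia genes 3.

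Genes that set vascular tone were higher than the mean for 17 of 18, and 10 were lung-highest (median log2 3.08). Ace, angiotensin converting enzyme, was at 1596, 1804, 1800 and 1878 CPM in lung, against 194 ± 58.4 CPM in kidney (log2 2.79, SE 0.29; edgeR, adjusted p = 9.75e-11). Calcrl and Ramp2, which join into the adrenomedullin receptor, were at 1036, 959.6, 834 and 1103 CPM and at 306.8, 326.8, 373 and 416 CPM in lung. Their highest other means were 53.6 ± 5.16 CPM in LN and 52.3 ± 2.46 CPM in skin, and no other library reached lung. The other partner Ramp3 was not called, and the ligand Adm was higher than the mean and lower than in heart (log2 -0.99). Gucy1a1 and Gucy1b1, the subunits of the nitric oxide receptor, were 2.16 log2 units above heart and 1.06 above brain. Nos3, the endothelial nitric oxide synthase, was lower in lung than in heart, at 39.4 ± 3.80 CPM in lung and 50.8 ± 10.3 CPM in heart (log2 -1.20). Edn1, the endothelin gene, was at 22.5, 23.8, 42.5 and 41.1 CPM in lung, against 17.7 ± 10.2 CPM in colon. Its call against colon was near the threshold (log2 0.73, SE 0.32; edgeR, adjusted p = 0.0492). A colon library at 33.0 CPM was above lung replicates 1 and 2.

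Among morphogen receptors and inhibitors 11 of 11 were higher than the mean and 6 were lung-highest (median log2 3.02), and among ligands 13 of 14 were higher and 4 were lung-highest (median log2 3.28). Acvrl1, an endothelial receptor for BMP ligands, was at 797, 878, 859 and 1000 CPM in lung, and its lowest, median and highest levels elsewhere were 4.38, 35.8 and 59.2 CPM (log2 3.83, SE 0.14; edgeR, adjusted p = 8.01e-24 for heart). Bmpr2, its partner, was at 613, 563, 522 and 609 CPM in lung, against 205 ± 59.97 CPM in ovary. Both lay above every other library. Of the ligands, Bmp6 was 1.16 log2 units above kidney and Bmp5 0.79 above skin. Fgf10 and Wnt2, signals from lung mesenchyme to epithelium, were each higher than 10 tissues. Fgf10 averaged 27.0 ± 1.45 CPM in lung and 22.4 ± 18.6 CPM in ovary. Shh, an epithelial signal, was lower in lung than in stomach, at 22.1, 14.7, 14.9 and 14.1 CPM in lung and 34.8 ± 6.69 CPM in stomach.

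Lung transcription factors were higher than the mean for 22 of 24, with 1 lower and 7 lung-highest (median log2 3.38). Nkx2-1, which lung epithelium needs to form and to keep its identity, was at 244, 246, 256 and 258 CPM in lung, and its highest level elsewhere was 1.11 CPM in a brain library. Sfta3-ps was at 194, 224, 195 and 194 CPM in lung, and its highest level elsewhere was 0.696 CPM in a brain library. Tbx4, a factor of lung mesenchyme, was at 146, 166, 153 and 149 CPM in lung, against 3.44 ± 1.49 CPM in ovary (log2 5.76, SE 0.58; edgeR, adjusted p = 7.97e-11). Tbx2 was also lung-highest, while Tbx5 was not called against heart, at 65.02, 83.9, 83.8 and 80.0 CPM in lung and 31.8, 81.8, 182 and 28.6 CPM in heart. Foxa1 and Foxa2, factors of gut and lung endoderm, were each higher than 8 tissues and not called against colon, liver or stomach. Sox9, a factor of the growing lung tip in embryos, was the lower member, at 0.595, 0.998, 2.23 and 0.727 CPM in lung and 0.691, 11.9 and 96.5 CPM (lowest, median, highest) elsewhere (log2 -3.51, SE 0.36; edgeR, adjusted p = 4.98e-11). Outside the list, Epas1, which encodes a hypoxia-inducible factor, was at 2980, 3177, 3769 and 3427 CPM in lung, against 359.5 ± 18.6 CPM in ovary (log2 2.37, SE 0.22; edgeR, adjusted p = 5.96e-12 for heart). Sptbn1, a spectrin chain of the membrane skeleton, was at 2087, 2065, 1841 and 2043 CPM in lung, against 741 ± 106 CPM in heart. Gprc6a, a receptor for amino acids, was at 5.91, 6.18, 8.27 and 6.42 CPM in lung, and its highest level elsewhere was 0.246 CPM in an ovary library.

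Alveolar macrophage genes were higher than the mean for 12 of 14, and 4 were lung-highest (median log2 4.11). Chil3, a chitinase-like protein, was at 772, 1510, 844 and 1168 CPM in lung, against 27.1 ± 1.17 CPM in spleen (log2 5.41, SE 0.67; edgeR, adjusted p = 4.17e-09). Siglecf, a lectin of alveolar macrophages and eosinophils, was at 23.6, 22.4, 16.8 and 19.1 CPM in lung, against 4.13 ± 0.893 CPM in colon. Ear1 and Ear2, ribonucleases, averaged 21.3 and 92.3 CPM in lung, against 1.71 ± 0.755 CPM in spleen and 27.2 ± 2.42 CPM in spleen. Chil3 and Chil4, Ear1 and Ear2, and Lyz1 and Lyz2 are near-identical pairs whose reads the counting could split, so single members are uncertain. Marco, a scavenger receptor, was lower in lung than in LN and spleen, at 41.0, 18.9, 28.3 and 24.3 CPM in lung and 356 ± 113 CPM in LN. Genes of interstitial macrophages were 3 higher and 3 lower of 7. The complement genes C1qa, C1qb and C1qc were the lower ones (log2 -1.10, -1.20 and -1.26), with 35.3 ± 4.17 CPM in lung and 353 ± 80.2 CPM in spleen for C1qa.

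Innate defence genes were higher than the mean for 17 of 18, and 7 were lung-highest (median log2 4.75). Lyz2, the lysozyme of macrophages and type 2 cells, was at 4979, 3790, 4286 and 4079 CPM in lung, and its lowest, median and highest levels elsewhere were 3.12, 130.2 and 1704 CPM. LN came nearest (log2 1.63, SE 0.24; edgeR, adjusted p = 2.27e-07). Lcn2, which withholds iron from bacteria, was at 135, 141, 142 and 145 CPM in lung, against 18.6 ± 4.88 CPM in liver. Wfdc2 was at 492, 395, 610.3 and 418 CPM in lung, against 118 ± 15.8 CPM in kidney, and was not called against kidney. Of blood and lymphoid genes, 7 of 7 for neutrophils and monocytes and 4 of 4 for B cells were higher than the mean. NK cells gave 5 of 5 and T cells 5 of 6, against 31.7% of all genes. In the main fit 0 of these genes were lung-highest, against 2.14% of all genes. For neutrophils and monocytes that count ran from 0 to 3 over the alternatives. The mean over tissues is one of logs, and against LN alone 0 T cell genes were higher and 6 lower (median log2 -4.47). For B cells 0 were higher and 4 lower (median log2 -3.785), for NK cells 0 and 2 of 5, and for neutrophils and monocytes 4 and 2 of 7. Over all genes 29.5% were higher in lung than in LN and 32.4% were lower. The lower NK cell genes and the lower neutrophil and monocyte genes were near that share. The T cell genes summed to 49.02, 56.91, 47.12 and 52.79 CPM in lung and to at most 6029 CPM elsewhere, in a thymus library. S100a8 of neutrophils was at 28.1, 34.4, 19.5 and 48.5 CPM in lung and 55.7 ± 10.1 CPM in spleen. The 5 red cell genes summed to 2623, 1221, 1062 and 2314 CPM in lung replicates 1 to 4 and to at most 17070 CPM elsewhere, in a spleen library. The share of blood left in each tissue was not tested.

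Fibroblast genes were higher than the mean for 14 of 15, with 1 lower and 5 lung-highest (median log2 4.28). Npnt, a matrix ligand of integrin, was at 1072, 1124, 1015 and 1186 CPM in lung, against 357 ± 65.6 CPM in kidney (log2 1.22, SE 0.49; edgeR, adjusted p = 0.0306). Itga8, an integrin chain that binds it, was at 376, 373, 349 and 373 CPM in lung and 5.28, 42.98, 105 and 10.9 CPM in heart, the nearest tissue. Limch1 was at 1093, 1158, 1045 and 1104 CPM in lung, against 212 ± 20.2 CPM in heart. Lung lay above every other library for these 3 genes. Inmt, a methyltransferase of lung fibroblasts, averaged 1599 ± 199 CPM in lung and 506 ± 30.9 CPM in liver, but was not called against liver in the fit (log2 0.39, SE 0.62; edgeR, adjusted p = 0.605). Dcn, a collagen-binding proteoglycan, was the lower member, at 165, 157, 215 and 86.3 CPM in lung and 2937 ± 248 CPM in skin. It was no longer called without lung replicate 4 (log2 -0.67; edgeR, adjusted p = 0.0664) or without skin (edgeR, adjusted p = 0.0742).

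Elastic fibre genes were higher than the mean for 10 of 10, and 2 were lung-highest (median log2 2.39). Eln, elastin itself, was not called against skin, at 752, 791, 621 and 553 CPM in lung and 811 ± 132 CPM in skin. Mfap4, a microfibril protein, was lung-highest at 611, 587, 550.4 and 807 CPM in lung, against 213 ± 31.2 CPM in skin. Smooth muscle and pericyte genes were higher for 14 of 14, and 6 were lung-highest (median log2 2.35). The pericyte genes Cox4i2, Higd1b and Trpc6 were among these, averaging 52.6, 24.7 and 32.3 CPM in lung, against 8.72 ± 1.26 CPM in heart, 4.22 ± 1.33 CPM in heart and 6.75 ± 2.50 CPM in ovary. Contractile genes were nearer the mean: Acta2 was at 230, 335.6, 525 and 244 CPM in lung and 2065 ± 695 CPM in stomach. Acta2, Myh11 and Tagln lost their call without lung replicate 3, the library in which each was highest (edgeR, adjusted p = 0.181, 0.0850 and 0.245 without it). Tagln was also lost without replicate 4 (edgeR, adjusted p = 0.0529) and with the D812 libraries alone (edgeR, adjusted p = 0.116). All 4 mesothelial genes were higher than the mean and 0 were higher than ovary.

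Ion and fluid transport genes were higher than the mean for 11 of 13, with 1 lower and 3 lung-highest (median log2 3.26). Scnn1a and Scnn1g, chains of the sodium channel that draws fluid out of alveoli, were at 469.6, 601, 602 and 490.3 CPM and at 180.5, 186, 191 and 194 CPM in lung, against 157 ± 19.2 CPM in kidney and 40.0 ± 3.82 CPM in kidney. The third chain, Scnn1b, averaged 144 ± 8.35 CPM in lung and 57.4 ± 3.84 CPM in kidney, and was not called against kidney (log2 0.93, SE 0.50; edgeR, adjusted p = 0.109). Aqp1, the water channel of capillaries, was not called against kidney or heart, at 810.4 CPM in lung and 849 ± 157 CPM in kidney. Cftr, the chloride channel, was lower in lung than in colon and stomach, at 12.3 ± 1.92 CPM in lung and 143 ± 21.1 CPM in colon.

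Xenobiotic genes were higher than the mean for 15 of 15, but 1 was lung-highest (median log2 3.69), a count that ran from 1 to 4 over the alternatives. Cyp4b1, a P450 of lung and bladder, was that gene, at 638, 642, 726 and 669 CPM in lung and 123 ± 28.6 CPM in kidney (log2 2.05, SE 0.34; edgeR, adjusted p = 2.23e-06). Fmo2, a flavin monooxygenase of lung, was higher than 10 tissues, at 1141, 1184, 1217 and 963 CPM in lung and 428 ± 45.7 CPM in kidney. Cyp2b10 was at 241, 234, 278 and 239 CPM in lung and 79.0 ± 13.8 CPM in liver, and was not called against liver (log2 0.38, SE 0.62; edgeR, adjusted p = 0.620).

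Heart muscle genes were detected in lung. Of 10 listed, 9 were higher in lung than the mean and 9 were lower than in heart. With the 44 other libraries as 1 group, Myh6 had a log2 of -3.98 (edgeR, adjusted p = 0.539) and Myl7 of -1.18 (edgeR, adjusted p = 0.770). Their summed level was 636, 716, 938 and 369 CPM in lung replicates 1 to 4 and at most 59710 CPM elsewhere, in a heart library. Myh6, the main myosin of adult mouse heart, was at 267, 299, 393 and 134 CPM in lung, 5.62, 92.1, 109.6 and 0.0766 CPM in thymus and 26060 ± 3878 CPM in heart. Myl7, the light chain of atria, was at 44.6, 48.6, 66.04 and 25.0 CPM in lung and 0.182, 1126, 1699 and 2.04 CPM in heart. Myl2, the light chain of ventricles, was at 0.121, 0.0722, 0.0365 and 0.276 CPM in lung and 5180 ± 1536 CPM in heart. As background, cardiac muscle sheathes the pulmonary veins of mice, and the source of these transcripts was not tested. Of the other tissues' marker lists, hepatocyte genes summed to 0.896, 0.914, 2.40 and 2.09 CPM in the lung libraries, and the skeletal muscle gene Myh4 had 0 counts in all 4. Hepatocyte genes were lower than the mean for 4 of 4, skeletal muscle genes were 0 higher and 2 lower of 6, thymocyte genes 4 and 1 of 5, squamous genes 2 and 2 of 6 and thyroid genes 1 and 1 of 5. Mast cell genes were 2 higher and 0 lower of 5, cartilage genes 1 and 1 of 4, fat genes 0 and 0 of 5 and red cell genes 5 and 0 of 5. Over all genes 31.7% were higher and 25.0% were lower. The thymocyte genes summed to 6.45, 8.29, 6.29 and 8.37 CPM in lung replicates 1 to 4 and to at most 5642 CPM elsewhere, in a thymus library.

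Of the 42 lung-lowest genes, the 6 of lowest log2 among those averaging at least 10 CPM elsewhere are given here. Cnnm1, a membrane protein gene abundant in brain, was at 0.00862, 0.0601, 0.0243 and 0.0153 CPM in lung and 0, 1.29 and 226 CPM (lowest, median, highest) elsewhere. Nos1, the neuronal nitric oxide synthase, was at 0.198, 0.240, 0.231 and 0.214 CPM in lung and 0.0791, 4.04 and 152 CPM elsewhere. Kcng4, a potassium channel subunit, was at 0.146, 0.108, 0.134 and 0.0689 CPM in lung and 0.0729, 1.16 and 192 CPM elsewhere. Each of these 3 overlapped at least 1 other library, since their lowest levels elsewhere lie within or below the lung range. Bdh1, the ketone body dehydrogenase, was at 2.57, 4.53, 6.19 and 2.86 CPM in lung and 5.70, 61.6 and 256 CPM elsewhere (log2 -4.03, SE 0.32; edgeR, adjusted p = 3.51e-14). Ephx2, an epoxide hydrolase, was at 4.45, 5.16, 7.40 and 3.44 CPM in lung and 6.51, 41.7 and 1068 CPM elsewhere. Both overlapped at the edge, in lung replicate 3. Ppargc1b, a coactivator of mitochondrial genes, was at 1.22, 1.51, 0.948 and 1.40 CPM in lung and 1.99, 7.03 and 35.7 CPM elsewhere, with no overlap.

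The 4 lung libraries were alike for most genes. Over the 10751 genes that averaged 10 CPM or more in lung, the median range over the 4 libraries was 0.203 on the log2(CPM + 1) scale, 153 genes spanned over 1 unit and 29 over 2. Bpifa1, a secreted defence protein of large airways, was at 6.43, 261, 792 and 50.6 CPM in lung replicates 1 to 4. Scgb3a1, a secretoglobin of upper airways, was at 16.4, 110.3, 419.7 and 45.3 CPM, and Muc5b, an airway mucin, at 28.9, 142, 304.5 and 42.2 CPM. Bpifb1, Reg3g and Ltf had the same order of libraries, and replicate 3 was highest and replicate 1 lowest for all 6. The highest library exceeded the lowest 123 times for Bpifa1 and 10.55 times for Muc5b, against 1.38 for Scgb1a1, 1.82 for Foxj1 and 1.22 for Ager. Bpifa1, Scgb3a1 and Muc5b were lung-highest all the same, although a thymus library at 14.97 CPM of Bpifa1 was above lung replicate 1. Bpifb1 was not called against stomach (49.5 ± 28.9 CPM in stomach), nor Reg3g against colon (78.7 ± 57.1 CPM in colon), stomach or thymus.

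Markers of other tissues differed between the same libraries. The 4 cartilage genes summed to 0.129, 0.409, 6.32 and 0.153 CPM in lung replicates 1 to 4, and the 5 fat genes to 17.01, 64.6, 114 and 16.8 CPM. Col2a1, the collagen of cartilage, was at 0.0948, 0.216, 2.93 and 0.115 CPM in lung. It was called higher than the mean (log2 1.94, SE 0.44; edgeR, adjusted p = 2.51e-04), but without replicate 3 it was not (log2 -0.64; edgeR, adjusted p = 0.305). The part of these values in the spread of airway genes was not tested.

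Clca1 and Chil4 were highest in replicate 2. Clca1, a protein of goblet cells, was at 2.05, 542, 68.2 and 112 CPM in lung and was lower than in colon and stomach. Chil4 was at 0.215, 39.9, 3.61 and 12.99 CPM in lung and was not called against stomach. Car3, a carbonic anhydrase of fat and muscle, was at 4.24, 44.9, 70.9 and 1.61 CPM in lung, highest in replicate 3. Single libraries were far above the other 3 for Cyp1a1 and Ccl28. Cyp1a1, the P450 induced through the aryl hydrocarbon receptor, was at 222, 14.9, 15.6 and 15.03 CPM in lung and was not called against skin. Ccl28, a chemokine of mucosal tissues, was at 0.474, 0.974, 0.608 and 95.1 CPM in lung and was not called against the mean (log2 -0.32, SE 1.63; edgeR, adjusted p = 0.957). Without replicate 4 of the other tissues it was called higher in lung (log2 3.21; edgeR, adjusted p = 1.99e-04). Without lung replicate 4 its log2 was -5.52 (edgeR, adjusted p = 0.0953), and without lung replicate 1, 2 or 3 it was 0.084 to 0.092.

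**Figure D5:**
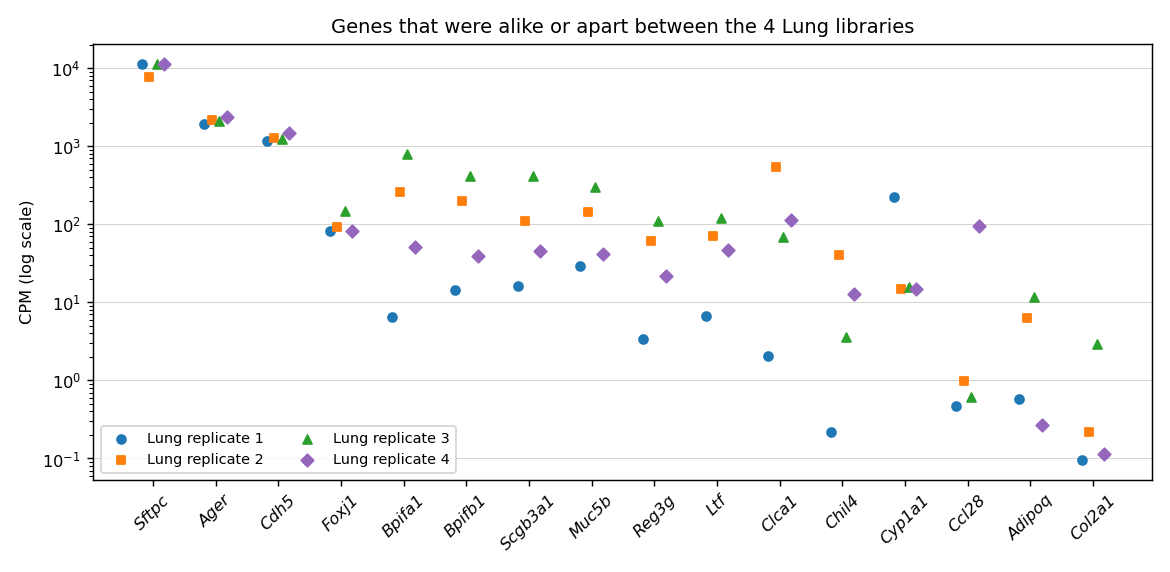
Level of 16 genes in lung replicates 1 to 4, as CPM on a log axis, 1 symbol per library. Bpifa1 spans 6.43 to 792 CPM, while Ager spans 1942 to 2375 CPM, and Ccl28 reaches 95.1 CPM in replicate 4 alone.

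The tests above set lung against the spread among libraries of 1 tissue. With the 44 other libraries taken as 1 group, so that differences between tissues count as error, 1151 genes were higher in lung and 446 were lower, which makes 72.07% of calls higher, against 55.93%. That share was 48.55% with DESeq2 and 48.15% with the stricter filter, where lower calls outnumbered higher ones.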

How the data were processed

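Poly(A) RNA of 4 lung libraries and 44 libraries of 11 other mouse tissues was sequenced. The deposited values are gene counts, which the authors made with Trim Galore, FastQC, STAR and HTSeq on mm10, per the submitters' processing notes. The sources used here do not give the tools' versions, the annotation or whether strand was used in counting. Lung libraries held 82250280 counts or more and the others 53591239 or more, and 0 of 72 within-tissue pairs of libraries were identical. Gene symbols came with 53274 of 53379 gene IDs.

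Genes passing edgeR's filterByExpr (26242) were fitted with edgeR 4.0.16 in R 4.3.3 by the quasi-likelihood test, with TMM factors and 1 term per tissue over all 48 libraries (36 residual degrees of freedom). Lung was contrasted with the unweighted mean of the 11 tissue terms and with each tissue, and genes were called across all genes at a Benjamini-Hochberg adjusted p under 0.05. Each SE is the absolute log2 difference divided by the square root of the F value of its test. It restates that test and is unreliable where counts are near 0. The mean is one of logs, so where tissues are near 0 its size depends on the prior count. Alternatives were RLE factors, 2 other filters, DESeq2 1.42.0, a run term, a replicate block, run D812 alone, the 44 libraries as 1 group, and leaving out each tissue or replicate. The fits were tested on simulated data. Genes named outside the lists were the 15 lung-highest genes farthest from their nearest tissue, the 10 most abundant, the 6 lung-lowest with the lowest log2 and the 8 with the largest range over the lung libraries. All members of 35 lists (340 genes) were counted, and the text names those whose values show the list's range or exceptions. The comparison, the lists and the members were chosen with earlier results of these data known. Replicates are numbered in accession order.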

Additional observations from a re-analysis of the deposited data

Results flagged for a closer look

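Among the list and named genes with at least 1 lung library at 1 CPM or more, 20 (6.15%) had 1 lung library farther from the other 3 than Dixon's 95% critical value allows, where chance flags about 1 group in 20. The values that follow are the CPM of the library that stood apart.

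Replicate 1 stood apart for Cyp1a1 at 222.4 CPM, Pdgfrb at 271.9 CPM, Notch3 at 205.3 CPM, Foxp1 at 150.3 CPM, Fzd1 at 93.07 CPM and Shh at 22.09 CPM. Replicate 2 stood apart for Sftpc at 7693 CPM and for Sfta3-ps at 223.6 CPM.

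Replicate 3 stood apart for Hp, which encodes haptoglobin, at 886.0 CPM, Itga8 at 348.9 CPM, Cyp2b10 at 277.6 CPM, Tagln at 272.8 CPM, Foxj1 at 147.8 CPM and Retnlg at 9.313 CPM. It also stood apart for the cartilage genes Acan at 2.979 CPM and Col2a1 at 2.930 CPM, which both averaged under 1 CPM in lung. Replicate 4, the library of run D804, stood apart for Aox3 at 155.9 CPM, Ccl28 at 95.12 CPM, C1qc at 24.96 CPM and Folr2 at 2.128 CPM.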

How the results depend on the processing

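Over the alternatives, the lung-highest genes numbered 440 with the stricter filter to 815 without ovary, against 562. DESeq2 called 7962 genes higher and 8437 lower, the stricter filter 6471 and 6969, and the no-filter fit 8925 and 6514. Calls higher numbered 7834 to 7930 without 1 lung replicate and 8245 to 8456 without 1 replicate of the other tissues, and calls lower 5848 to 5926 and 6216 to 6366. Lung-highest genes numbered 514 to 533 and 515 to 548 in these fits, and lung-lowest genes 32 to 42 and 29 to 38. Lung-lowest genes numbered 65 without brain, 73 without liver and 69 without spleen, but 41 without kidney, against 42 in the main fit. Why the count depended on the tissue left out was not tested. With the 44 libraries as 1 group, 1151 genes were higher and 446 lower, and the median log2 of all genes shifted by -0.64.

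In that last fit 10 named genes changed sign. Their log2 was -0.96 for Acta2, -0.71 for Cftr, -0.96 for Clca1, -2.33 for Col2a1, -0.97 for Marco, -0.99 for Myh11, -3.98 for Myh6, -1.18 for Myl7, -0.090 for Napsa and -1.06 for Tagln, and 42 other named genes were no longer called. Without 1 lung replicate, Col2a1 ran from -0.64 (without replicate 3) to 2.33 and Acan from -2.73 (without replicate 3) to 1.51, and without replicate 4 of the other tissues Ccl28 turned to 3.21, against -5.52 without lung replicate 4. The cause of these shifts on leaving out a replicate was not tested. Leaving out a lung replicate ended the call of 6 of the 133 named genes called, which were Acta2, Car3, Col2a1, Dcn, Myh11 and Tagln. RLE factors and the replicate block changed 0 of 143 named genes' calls.

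Library numbers are in the labels, but what a set of them shares is not, so sets were not taken as pairs. Of 44 same-set pairs of a lung and another library, 29 correlated above 0.1 in their deviations (-0.168 to 0.39). Pairs from different sets reached at most 0.230, so some of those were above 0.1 too. On average 4 of 4 lung libraries were closest to their own set. The fit with sets as a replicate block called 8370 genes higher and 6633 lower, with 570 lung-highest genes, 553 of them shared with the 562, and 42 lung-lowest. The shallowest library held 53591239 counts, and levels near 0 rest on few counts.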

Other observations

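The 57 cultured libraries of the series, tumour lines and melanocytes, hold no healthy tissue and entered no comparison. Of the 562 lung-highest genes, 220 were under 1 CPM in every cultured library (39.15%), against 10011 of all 26242 tested genes (38.15%). Sftpc, Sftpa1, Sftpd and Sox17, a factor of endothelium, had 0 counts in all of them.

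Ccl28 differed between libraries in other tissues too. The submitters' library numbers fall into 4 sets of 12, each with 1 library per tissue. The fourth set was above the other 3 in 11 of 12 tissues, with colon as the exception, and in those 11 it exceeded the highest of the other 3 by 4.38 to 1331 times. Libraries of the fourth set carry the run code D812 in 4 tissues. The first set exceeded the highest of the others by over 3 times for Cyp1a1 in 3 tissues, which were lung, heart and ovary. The labels do not say what the libraries of a set share.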
